A study of Mus musculus with 8 samples.

Results

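The genes described here encode the proteins of the cytosolic ribosome, measured in hemophagocytes and in resting macrophages of the mouse spleen. Members were taken from the platform annotation by symbol. They are the genes whose symbol starts with Rpl or Rps followed by a number, together with Rplp0, Rplp1, Rplp2 and Rpsa, without the Rps6k kinases, Rps19bp1 and annotated pseudogenes. A gene entered through a probe set that the annotation gives to it alone; of several, the one brightest on average across the arrays was used. This gave 62 genes of the 19938 measured, 38 of the large (60S) subunit and 24 of the small (40S) subunit. A further 20 ribosomal protein symbols, among them Rpl3, Rpl11, Rpl35a, Rps16 and Rps24, occurred only on probe sets shared with other genes and are not members.

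All arrays came from wild-type male C57Bl/6j mice that were 8 weeks old. Hemophagocytes are macrophages that have engulfed blood cells. They were taken, as replicates 2, 3, 5 and 6, from mice that had received 4 intraperitoneal doses, on alternate days, of 37.5 ug of CpG1826, an oligonucleotide ligand of Toll-like receptor 9, with 200 ug of antibody 1B1.3A, which blocks the IL-10 receptor. Resting splenic macrophages, replicates 3, 4, 5 and 6, came from mice given 4 doses of 200 uL of PBS. From each mouse 20 target cells were laser-captured from touch preparations of the spleen and pooled, and their RNA was amplified before hybridisation to Affymetrix mouse Gene ST 1.0 arrays. Non-engulfing macrophages of treated mice were not analysed here, so engulfment and treatment cannot be told apart. Which mice contributed to which array is not recorded in the labels, so p-values measure only the spread between these arrays, and part of it may be technical.

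The ribosome reads mRNA on its small subunit and joins amino acids on its large subunit, and each ribosomal protein is present in 1 copy per ribosome, with the proteins of the P stalk as the exception. Ribosomal protein genes therefore tend to be transcribed together at high levels, and free copies of the proteins are degraded. Most of their mRNAs begin with a C followed by a run of pyrimidines, the 5′ terminal oligopyrimidine (TOP) tract, through which mTOR signalling and LARP1 control their translation. In macrophages, Toll-like receptor signalling is known to raise demand for protein synthesis through mTOR.

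The start-site sequences below show that tract for genes that the results turn on. Each line gives 40 bases, the last 20 beginning at the RefSeq transcription start (GRCm38.p6), 5′ to 3′ on the gene's own strand. Capitals mark an unbroken run of C and T that begins with a C at the start itself and holds at least 5 bases. Rps10 was the small subunit gene whose groups did not overlap, Rps21 and Rpl38 varied most between arrays among genes with a run, and Rps6 had the lowest change of the members. Rps28 and Rpl41, which also varied widely, had no such run at the annotated start. Another annotated Rps21 start (window chr2:180257429-180257468, plus strand), not printed here, had no such run either.
Rps10 (chr17:27635225-27635264, minus strand): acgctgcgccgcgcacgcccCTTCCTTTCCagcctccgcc
Rps21 (chr2:180257359-180257398, plus strand): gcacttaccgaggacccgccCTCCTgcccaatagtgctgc
Rps6 (chr4:86857348-86857387, minus strand): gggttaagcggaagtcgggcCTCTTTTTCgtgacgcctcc
Rpl38 (chr11:114668560-114668599, plus strand): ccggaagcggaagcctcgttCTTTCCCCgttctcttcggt
Rps28 (chr17:33824543-33824582, minus strand): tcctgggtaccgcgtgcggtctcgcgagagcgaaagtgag
Rpl41 (chr10:128549149-128549188, minus strand): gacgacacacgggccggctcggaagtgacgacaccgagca

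RefSeq promoters were given for 50 of the 62 members, 59 promoters in all. A run of this kind began at the annotated start of 10 of these 59 (16.9%) and of 823 of all 32851 mouse promoters (2.51%). It was found in 5 of 35 large subunit promoters and 5 of 24 small subunit promoters. Within 300 bases around the start, 250 before it and 50 from it on, the letters CCGGAAG, a core recognised by ETS factors such as GABP, occurred on either strand in 33.9% of the members' promoters and 8.86% of all promoters. The letters CTTTCC occurred on either strand in 45.8% and 26.6%. These letter matches describe the windows only, and the absence of a run says only that the annotated first base does not start one.

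No member passed the adjusted threshold of 0.05 in limma in either direction, where 2 genes were called higher in hemophagocytes over all 19938 (0.01%) and 0 lower (0%). The values lay mostly above those of resting macrophages. The log2 change, hemophagocyte mean minus resting mean, was above 0 for 49 of the 62 members (79%), against 36.1% of all genes. It was above 1, more than a doubling, for 10 members (16.1%), against 0.346% of all genes. At an unadjusted limma p under 0.05, 14 members (22.6%) were higher against 1.53% of all genes, and 0 were lower against 5.05%. The 14 became 7 without resting macrophage 6, against 1.21% of all genes, and 21 without hemophagocyte 6, against 1.84%. The lowest hemophagocyte array lay above the highest resting array for 2 members, Rpl8 and Rps10 (3.23%), where 0.802% of all genes were apart in this direction. The reverse order, found for 2.9% of all genes, was seen for 0 members. Leaving out 1 array gave 2 to 8 members apart and higher. The count was 8 without hemophagocyte 6, 7 without resting macrophage 5 and 6 without resting macrophage 3. It was 5 without hemophagocyte 2 or 5 and 4 without resting macrophage 4. Groups of fewer arrays come apart more easily, and the share of all genes apart was not computed at these settings, so these counts are not compared with the 2. In captured and pooled cells like these, fewer cells of a type and less RNA per cell cannot be told apart.

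The median change was 0.39 over the members (mean 0.50) and -0.04 over all genes. It was 0.38 for the large subunit, with a range of -0.30 to 3.13, and 0.41 for the small subunit, with a range of -0.67 to 4.50. Changes were above 0 for 28 of 38 large subunit genes (73.7%) and 21 of 24 small subunit genes (87.5%). Unadjusted limma p was under 0.05 for 8 large subunit genes (21.1%) and 6 small subunit genes (25%), all higher. A change above 1 was measured for 4 large subunit genes, Rpl41, Rpl27, Rpl9 and Rpl23a, and for 6 small subunit genes, Rps20, Rps21, Rps28, Rps29, Rps25 and Rps10. Only Rps6 lay under -0.5.

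**Figure D1:**
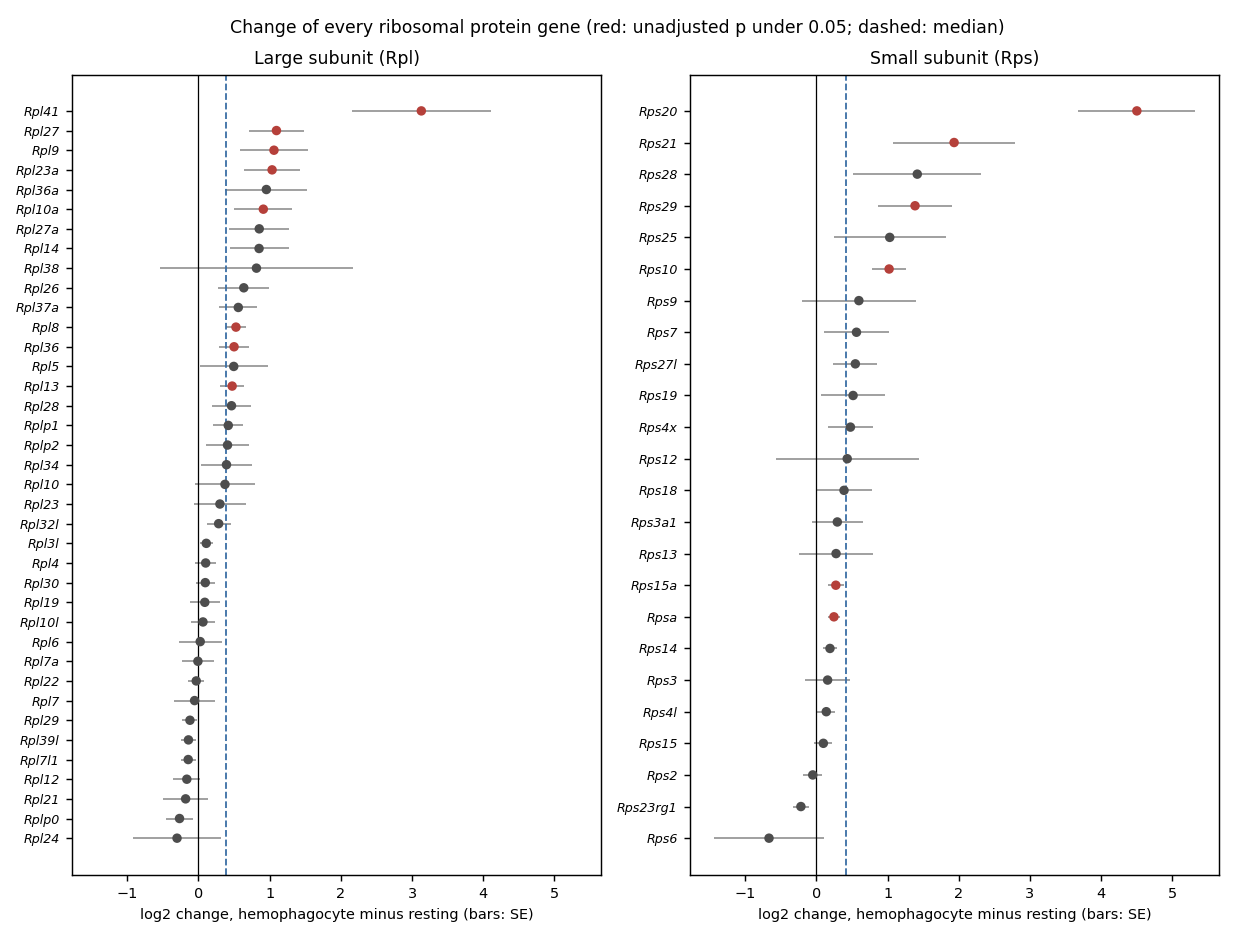
Log2 change (hemophagocyte minus resting, x axis) of each of the 38 large subunit and 24 small subunit genes, with bars for the standard error; red points have an unadjusted limma p under 0.05 and dashed lines mark the subunit medians of 0.38 and 0.41. Rps20 at 4.50 and Rpl41 at 3.13 lie farthest to the right, and 13 genes lie left of 0.

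The members' values also differed between arrays of the same group. Measured from each gene's mean over the 8 arrays, the median of the large subunit genes was -0.11, 0.64, 0.02 and -0.14 on hemophagocytes 2, 3, 5 and 6, and -0.12, -0.05, -0.09 and -0.37 on resting macrophages 3, 4, 5 and 6. The small subunit genes stood in the same order of arrays at -0.28, 1.14, 0.25 and -0.25, and at -0.20, -0.28, -0.10 and -0.41. Hemophagocyte 3 was thus the high array for both subunits, hemophagocyte 5 followed for both, and hemophagocytes 2 and 6 lay among the resting arrays. The same median over all genes stayed between -0.07 and 0.02, and hemophagocyte 3 had the lowest of these.

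Hemophagocyte 3 gave the highest of the 8 values for 36 of the 62 members (58.1%), against 8.95% of all genes. This held for 22 of 38 large subunit genes and 14 of 24 small subunit genes. It gave the lowest value for 3 members (4.84%), but for 33.1% of all genes. For 15 members (24.2%) it stood at least 1 log2 unit above every other array, as it did for 0.351% of all genes. Hemophagocytes 3 and 5 were the highest pair for 14 members (22.6%) and 2.01% of all genes.

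Without hemophagocyte 3 the members' median change was 0.12, with 38 of 62 above 0. Without hemophagocytes 3 and 5 together it was -0.03, with 30 of 62 above 0, and the subunit medians were 0.03 (large) and -0.13 (small). The median change of the members was thus not above 0 without these 2 arrays. They were the 2 hemophagocytes with the highest member medians, so a lower median without them follows from their choice. No other pair of hemophagocytes was left out for comparison.

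**Figure D2:**
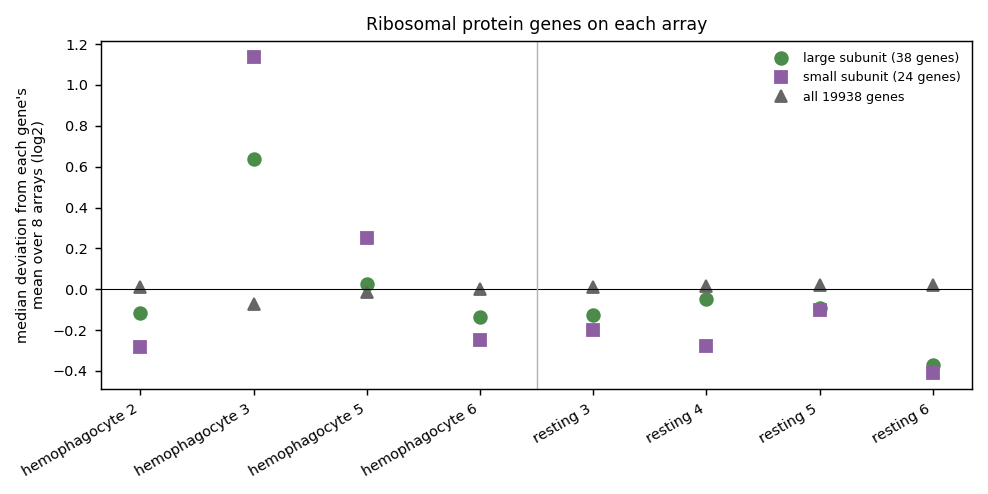
Median deviation (log2, y axis) of the large subunit genes (circles), the small subunit genes (squares) and all 19938 genes (triangles) from each gene's mean over the 8 arrays, for each array (x axis). Hemophagocyte 3 stands highest at 0.64 (large) and 1.14 (small), while all genes lie between -0.07 and 0.02.

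The subunits were compared on each array through the median level of the small subunit genes minus that of the large subunit genes; since levels of different probe sets are not comparable, only its variation between arrays is read. This gap was 0.08, 1.17, 0.66 and 0.35 on hemophagocytes 2, 3, 5 and 6, and 0.17, 0.11, 0.65 and 0.08 on resting macrophages 3, 4, 5 and 6. Hemophagocyte 3 was highest, and the groups overlapped. The mean gap was 0.56 ± 0.47 in hemophagocytes and 0.25 ± 0.27 in resting macrophages (SD, n = 4 each). The difference of 0.31 was smaller than the SD among hemophagocytes. Leaving out 1 array gave 0.11 (without hemophagocyte 3) to 0.47 (without hemophagocyte 2), and it was -0.04 without hemophagocytes 3 and 5. The median level of the large subunit genes was 7.11 ± 0.37 against 6.78 ± 0.13, and that of the small subunit genes 7.68 ± 0.81 against 7.03 ± 0.34 (SD, n = 4 each).

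Ribosomal protein genes had wide ranges over the arrays. The highest and lowest of the 8 values were over 2 log2 units apart for 26 members (41.9%), against 0.883% of all genes. The count was 14 of 38 in the large and 12 of 24 in the small subunit. Over the 7 arrays without hemophagocyte 3 the range was over 2 for 12 of the 62 members (19.4%), against 0.557% of all genes. Among the 4 resting arrays alone the range was over 2 for 9 members (14.5%), namely Rpl41, Rpl38, Rpl24, Rpl23, Rps20, Rps12, Rps29, Rps6 and Rps13, against 0.15% of all genes. Among the hemophagocytes it was over 2 for 21 members (33.9%), against 0.682% of all genes. Of the 1891 pairs of members, 1345 had a correlation above 0 over the 8 arrays, with a median r of 0.32. The pairs share the same arrays and amplified RNA. These values were not computed for pairs of all genes, so they are a description only and have no comparison.

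As a mark of background, 1194 olfactory and vomeronasal receptor genes were used, which spleen cells are not known to need. Their 95th percentile lay between 7.42 and 7.81 on each array. Members above it numbered 11, 42, 23 and 16 on hemophagocytes 2, 3, 5 and 6, and 12, 12, 16 and 9 on resting macrophages 3, 4, 5 and 6. Most members were thus within the range of these receptor genes on every array except hemophagocyte 3.

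Among small subunit proteins, those of the 40S head, which holds the mRNA path and the tRNA contacts, differed in the size of their change. Most small subunit genes outside the head list also had a change above 0. Of 14 listed head genes 10 were members, and all 10 had a change above 0, beside 21 of all 24 small subunit genes. Above 0.5 were 6 of the 10, beside 10 of the 24. The head median was 0.77, with Rps15 at 0.10 and Rps20 at 4.50 as the ends of the range on the probe sets used. Other Rps15 probe sets had changes of 0.79 and 1.57. Of the 7 Rps18 probe sets 6 were above 0, and the lowest was at -0.13. An unadjusted limma p under 0.05 was reached by 3 of the 10 (30%), Rps10, Rps20 and Rps29, and an adjusted one by 0. The unadjusted share was 25% of the small subunit genes and 1.53% of all genes, all higher. The same list of members had a mean level of 9.01 and 8.47 on hemophagocytes 3 and 5, and 6.55 to 7.50 on the other 6 arrays.

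Rps20 lies in the 40S head and, with Rps10, is ubiquitinated when ribosomes collide. Its level was 7.81, 10.41, 10.42 and 10.04 on hemophagocytes 2, 3, 5 and 6, and 7.86, 4.19, 4.40 and 4.22 on resting macrophages 3, 4, 5 and 6. Resting macrophage 3 lay just above hemophagocyte 2, so that the groups overlapped by these arrays alone, with the other hemophagocytes high and the other resting arrays low. The change was 4.50 (SE 0.82), with an unadjusted limma p of 2.1e-04 and an adjusted p of 0.55. Without resting macrophage 3 it was 5.40 (limma adjusted p = 0.020). Over 20 alternatives limma's adjusted p ranged from 1.9e-07 to 0.97, with 2 under 0.05. Both of these left out resting macrophage 3, and the lowest, chosen after seeing the data, also left out hemophagocyte 2. Those are the arrays by which the groups overlapped, so the 2 values are not independent tests of the change. On 3 of the 4 resting arrays Rps20 lay under the mean of the receptor genes (5.99 to 6.16), which mark background, so the size of its change is not well determined.

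Rps10, at the mRNA entry side of the head, stood at 7.09, 7.87, 8.21 and 8.54 on hemophagocytes 2, 3, 5 and 6. On the resting arrays it stood at 6.89, 7.0035, 6.92 and 6.82. The resting values were tight and every hemophagocyte lay above them, with hemophagocyte 6 highest, so that Rps10 did not follow hemophagocyte 3 as most members did. The change was 1.02 (SE 0.24; limma unadjusted p = 0.0015, adjusted p = 0.75). All 3 Rps10 probe sets had changes above 0, from 0.29 to 1.02, and 2 of them kept the groups apart. Over 20 alternatives the change was 0.68 to 1.33 and limma's adjusted p 0.014 to 0.97, with 1 under 0.05, that without hemophagocyte 2, the array nearest the resting values. All 4 resting values lay under the receptor genes' 95th percentile.

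Rps21, Rps28, Rps25 and Rps9 had their highest values on hemophagocyte 3. Rps21, a small protein of the 40S subunit, was at 5.90, 10.51, 10.16 and 7.25 on hemophagocytes 2, 3, 5 and 6 and at 5.96, 6.77, 6.67 and 6.69 on the resting arrays. Hemophagocytes 3 and 5 were high, hemophagocyte 6 slightly above the resting values and hemophagocyte 2 the lowest of all. The change was 1.93 (SE 0.85; limma unadjusted p = 0.045, adjusted p = 0.75).

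Rps28, a small head protein near the mRNA exit, showed the same pair of high arrays, at 7.01, 11.11, 10.62 and 6.69 in hemophagocytes and 6.79, 7.75, 7.97 and 7.26 in resting macrophages. Its change was 1.42 (SE 0.90), all 7 of its probe sets were above 0, and without hemophagocytes 3 and 5 it was -0.59. Rps25, which viral internal ribosome entry sites require, stood at 4.45, 8.90, 6.98 and 4.998 against 6.08, 4.996, 4.88 and 5.24. Rps9 was high on hemophagocyte 3 alone, at 6.35, 10.19, 6.14 and 5.78 against 6.50, 6.04, 7.26 and 6.28. For both the groups overlapped, with changes of 1.03 and 0.60.

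Rps29, a zinc-binding head protein, differed in pattern. It was at 9.46, 10.39, 9.22 and 8.12 on hemophagocytes 2, 3, 5 and 6 and at 8.44, 8.31, 8.50 and 6.41 on the resting arrays. Hemophagocytes 2, 3 and 5 lay above every resting array, hemophagocyte 6 fell within the resting range, and resting macrophage 6 was low. The change was 1.39 (SE 0.52; limma unadjusted p = 0.022, adjusted p = 0.75).

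Rps12 and Rps6 had wide values in both groups. Rps12, also of the head and named for the highest mean level of its probe set, was at 7.10, 11.14, 10.78 and 11.03 in hemophagocytes and 6.86, 10.81, 10.44 and 10.20 in resting macrophages. Hemophagocyte 2 and resting macrophage 3 were the low arrays, over 3 log2 units under the rest, and the change was 0.43 (SE 1.00).

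Rps6, the ribosomal protein that S6 kinases phosphorylate downstream of mTOR, was at 6.74, 10.03, 7.74 and 7.61 in hemophagocytes and 9.47, 10.37, 7.83 and 7.11 in resting macrophages. Hemophagocyte 3 and resting macrophages 3 and 4 were high, and the groups overlapped. The change was -0.67 (SE 0.77; limma adjusted p = 0.85). All 8 Rps6 probe sets had changes below 0, from -0.67 to -0.26, but the change was 0.02 without hemophagocyte 2 and resting macrophage 3.

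Rpsa, which is also known as the laminin receptor, had a small and even difference, at 9.002, 8.98, 9.10 and 8.78 against 8.86, 8.72, 8.68 and 8.61. Hemophagocyte 6 overlapped the resting range. The change was 0.25 (SE 0.09; limma unadjusted p = 0.018, adjusted p = 0.75), and all 5 probe sets were above 0. Rps15a, in the body of the subunit, was at 3.56, 3.38, 3.74 and 3.27 against 3.26, 2.97, 3.29 and 3.31, with a change of 0.27 (limma unadjusted p = 0.036, adjusted p = 0.75). Rps2, near the mRNA entry, had a change of -0.05 (0.0015 after cyclic loess normalization), while its other 2 probe sets were above 0 and reached 0.55. Rps23rg1, a retrogene derived from Rps23 that matches the symbol rule, had a change of -0.22.

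**Figure D3:**
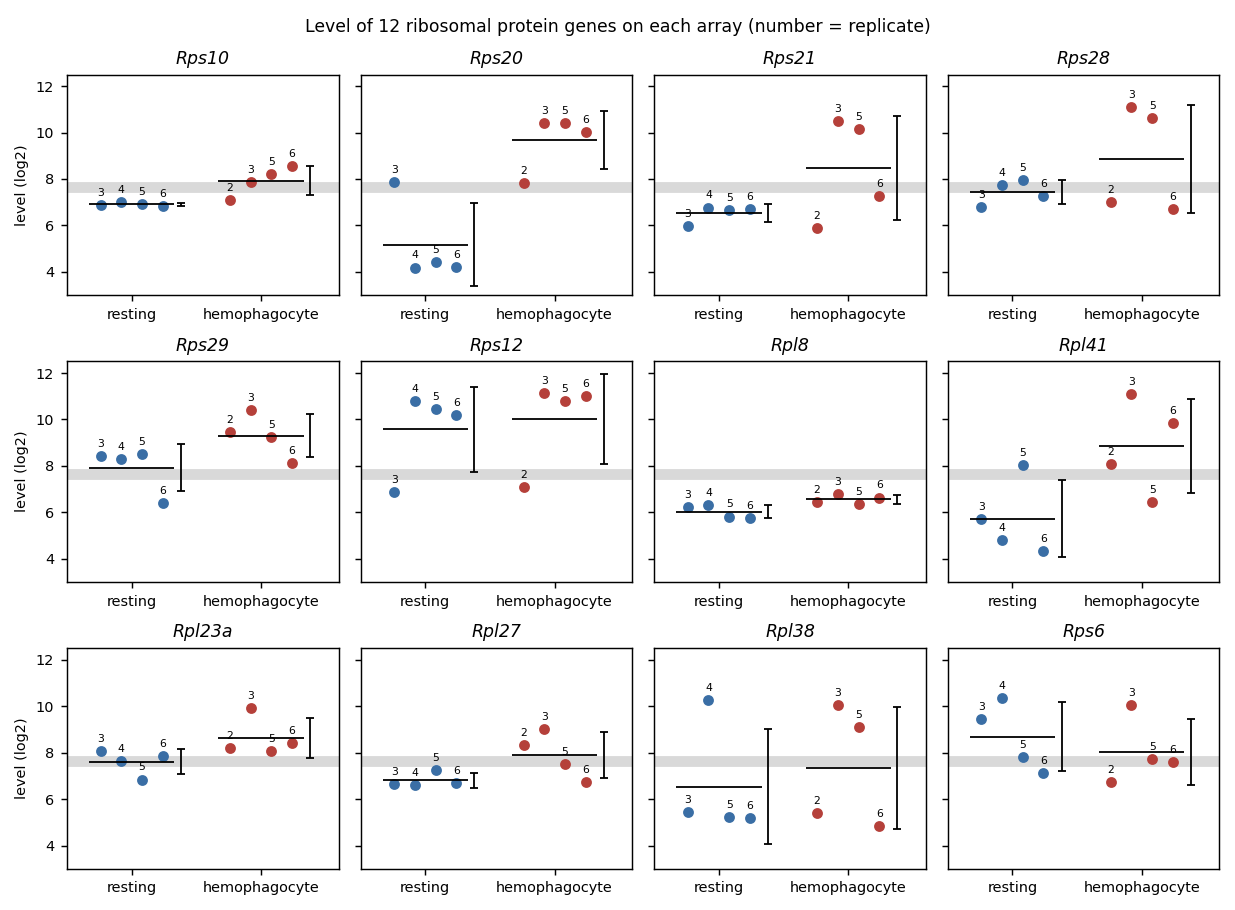
Log2 level (y axis) of 12 ribosomal protein genes on each array, with the replicate number above each point, lines for group means and bars for the SD (n = 4 arrays per group); the grey band spans the 95th percentiles, 7.42 to 7.81, of the receptor genes on the 8 arrays. Rps10 and Rpl8 are the genes whose groups do not overlap, and Rps21 and Rps28 show hemophagocytes 3 and 5 far above the other 6 arrays.

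In the large subunit, Rpl8, which lies near the peptidyl transferase centre, was at 6.46, 6.78, 6.35 and 6.64 on hemophagocytes 2, 3, 5 and 6. It was at 6.21, 6.32, 5.82 and 5.77 on the resting arrays. Every hemophagocyte lay above every resting array, with hemophagocyte 5 and resting macrophage 4 nearly touching. The change was 0.53 (SE 0.14; limma unadjusted p = 0.0032, adjusted p = 0.75), from a single probe set whose values stayed under the receptor genes' 95th percentile on all arrays.

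Rpl41, the shortest ribosomal protein, had the widest range of the members. Its level was 8.06, 11.09, 6.46 and 9.83 in hemophagocytes and 5.73, 4.81, 8.04 and 4.35 in resting macrophages. Hemophagocytes 3 and 6 were high, resting macrophage 5 was level with hemophagocyte 2, and the groups overlapped. The change was 3.13 (SE 0.98; limma unadjusted p = 0.0087, adjusted p = 0.75), and its 3 probe sets carried identical values. As for Rps20, 3 of the 4 resting values lay under the mean of the receptor genes.

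Proteins around the exit of the nascent peptide tunnel were represented by 5 of 10 listed genes, of which 4 were above 0, with a median of 0.64. Rpl23a, the docking site of the signal recognition particle, was at 8.19, 9.93, 8.05 and 8.41 in hemophagocytes and 8.09, 7.65, 6.84 and 7.87 in resting macrophages. Only hemophagocyte 5 and resting macrophage 3 crossed, by less than 0.1. The change was 1.03 (SE 0.39; limma unadjusted p = 0.022, adjusted p = 0.75). All 13 Rpl23a probe sets, with 11 distinct profiles, had changes between 0.93 and 1.23, and 11 of the 13 kept the groups apart.

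Rpl38, needed in the mouse embryo for translation of a subset of Hox mRNAs and also at the tunnel exit, switched between high and low levels within both groups. It was at 5.39, 10.06, 9.10 and 4.82 in hemophagocytes and 5.43, 10.25, 5.24 and 5.20 in resting macrophages. Hemophagocytes 3 and 5 and resting macrophage 4 were at 9.10 or above, with the other 5 arrays at 5.43 or below. The change was 0.81 (SE 1.35), and its 4 probe sets had changes between 0.78 and 0.81.

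Rpl27 was at 8.34, 9.01, 7.49 and 6.75 on hemophagocytes 2, 3, 5 and 6 and at 6.67, 6.61, 7.26 and 6.68 on the resting arrays. Hemophagocytes 2 and 3 stood highest and hemophagocyte 6 lay in the resting range. The change was 1.095 (SE 0.39; limma unadjusted p = 0.018, adjusted p = 0.75).

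Rpl9, at the base of the P stalk, was at 7.09, 9.82, 7.70 and 8.26 against 6.72, 7.10, 7.85 and 6.95, and its 8 probe sets had changes of 0.99 to 1.51. Rpl10a, the protein of the mobile L1 stalk, was at 7.02, 9.14, 6.92 and 7.21 against 6.51, 6.98, 6.55 and 6.60, with a change of 0.91. Both overlapped between groups and had their highest value on hemophagocyte 3. Rpl13 and Rpl36 had smaller changes of 0.47 and 0.50, also highest on hemophagocyte 3, and all 9 probe sets of each were above 0.

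Rpl24, which forms a bridge between the subunits, was low on 7 arrays and high on 1. It was at 6.66, 6.87, 7.27 and 6.65 in hemophagocytes and 6.37, 6.46, 9.57 and 6.25 in resting macrophages. The change was -0.30, and without resting macrophage 5 it was 0.50. Rpl21 was at 6.82, 7.56, 7.29 and 7.37 against 8.52, 7.41, 6.91 and 6.93, so that resting macrophage 3 was high. Its change was -0.18, whereas its other 8 probe sets were above 0 and reached 1.00.

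Rpl23 and Rpl34 were named, like Rps12, for the mean level of their probe sets. Rpl23 was at 8.67, 9.51, 9.33 and 9.38 against 7.64, 9.74, 9.14 and 9.16, with resting macrophage 3 low, and its change was 0.30. Rpl34 was at 8.01, 9.73, 9.38 and 9.28 against 9.29, 9.03, 8.56 and 7.96, with a change of 0.39. The groups overlapped for both.

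Rpl5 carries 5S rRNA into the large subunit together with Rpl11, and the free complex binds Mdm2 when ribosome assembly is disturbed. Rpl5 was at 4.70, 7.49, 5.42 and 5.03 in hemophagocytes and 5.42, 5.11, 4.99 and 5.14 in resting macrophages. Hemophagocyte 3 alone was high, and the change of 0.50 was -0.12 without it.

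The P stalk, built of Rplp0 and dimers of Rplp1 and Rplp2, recruits the elongation factor GTPases. Rplp1 was at 9.05, 8.41, 8.22 and 7.90 against 7.99, 7.73, 8.25 and 7.94, highest on hemophagocyte 2, with a change of 0.42. Rplp2 was at 6.64, 6.78, 8.16 and 6.72 against 6.38, 6.87, 6.92 and 6.50, high on hemophagocyte 5 alone, with a change of 0.41. Rplp0, often used as a reference gene, was at 6.86, 6.47, 6.69 and 6.37 against 6.60, 6.76, 6.63 and 7.46. It was highest on resting macrophage 6 and its change was -0.27, while a second probe set had 0.20. On the probe sets used, each stalk gene had its highest value on a different array, while the second Rplp0 probe set was highest on hemophagocyte 3, at 7.004.

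Paralogs of ribosomal proteins with tissue-limited or inducible expression were represented by 6 of 10 listed genes, of which 4 had changes above 0, with a median of 0.09. Rps27l, a target of p53, was at 5.21, 6.39, 6.88 and 5.41 in hemophagocytes and 5.33, 5.64, 5.34 and 5.40 in resting macrophages, with hemophagocytes 3 and 5 high. Its change was 0.55 (limma unadjusted p = 0.10, adjusted p = 0.75). Rpl3l, of striated muscle, and Rpl10l and Rpl39l, of the testis, had changes of 0.11, 0.06 and -0.14. Those of Rpl7l1 and Rps4l were -0.14 and 0.14.

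The members were read by 218 single-gene probe sets with 206 distinct profiles, of which 191 had a change above 0, against 37% of all 21789 single-gene probe sets. Groups were apart for 16, all higher, where 0.9% of all were apart in this direction; of the 16, 11 belonged to Rpl23a, 2 each to Rps10 and Rpsa and 1 to Rpl8. A single probe set stood for 23 members. Of the other 39 members, 30 had every probe set above 0, Rps6 and Rpl24 had every probe set below 0, and 7 had probe sets of both signs. Rpl7a was the widest of these, from -0.01 on the probe set used to 1.38 on another. Ribosomal protein genes have many processed pseudogenes and near-identical copies, so a probe set may read more than the gene it is annotated to, and the multiple probe sets of a gene are not independent measurements.

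**Figure D4:**
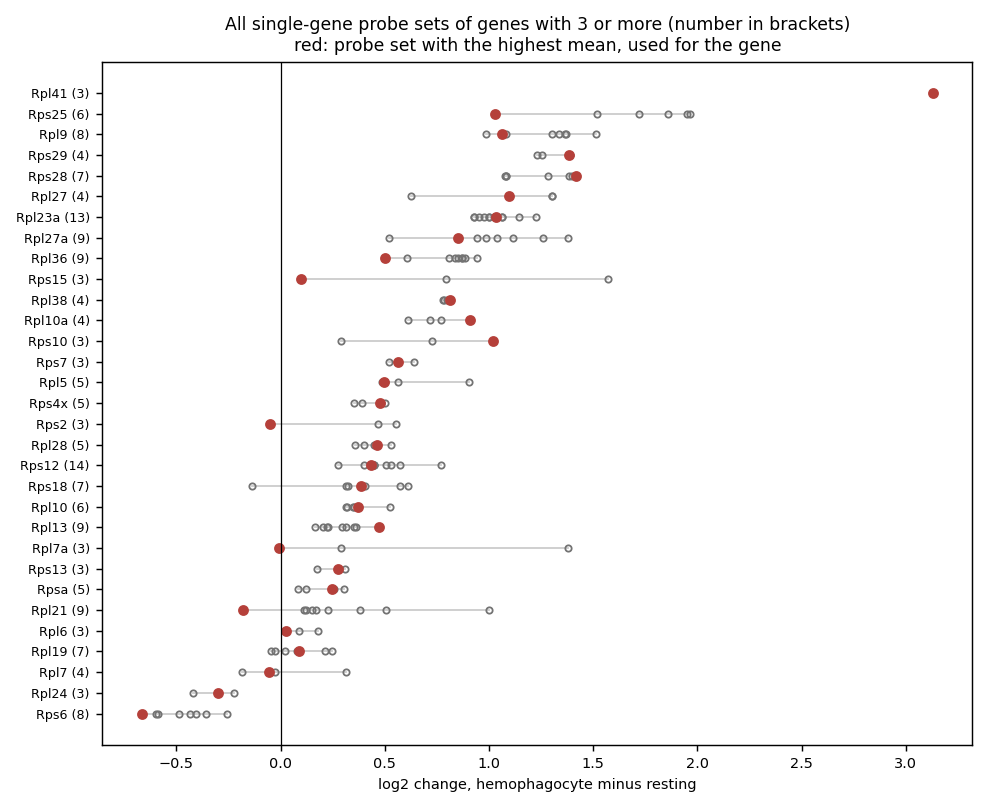
Log2 change (hemophagocyte minus resting, x axis) of every single-gene probe set of the 31 genes with 3 or more, each gene's number in brackets; the red point is the probe set with the highest mean, which stood for the gene. All 13 probe sets of Rpl23a lie between 0.93 and 1.23 and all 8 of Rps6 between -0.67 and -0.26, while those of Rpl21 and Rpl7a lie on both sides of 0.

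Probe sets that a ribosomal protein gene shared with symbols outside the symbol rule gave 15 further ribosomal protein genes. Some of those symbols were annotated pseudogenes of the same gene, such as Rps16-ps2, Rpl31-ps12 and Rpl3-ps1. The annotation cannot separate the 15 from the symbols that share the probes. At the brightest shared probe set of each, 12 of the 15 had changes above 0, with a median of 0.48. Of all 1621 several-gene probe sets 43.2% were above 0. The groups were apart and higher for 3 of the 15, namely Rpl31 (1.97), Rpl35 (1.26) and Rpl35a (3.09). In this direction 2.65% of all several-gene probe sets were apart. Both shares count probe sets, the ribosomal ones among them, and not genes at their brightest probe set, so they are only a rough comparison. For Rpl35 the nearest arrays were at 6.66 and 6.65, and its other 2 probe sets overlapped. The Rpl35a probe set, shared with Ino80, was at 8.92, 10.48, 9.67 and 10.79 in hemophagocytes and 7.05, 7.15, 6.78 and 6.53 in resting macrophages. Each hemophagocyte lay above each resting array. It passed in limma when such probe sets were also taken (adjusted p = 0.023). All 12 probe sets of this pair had changes above 0, from 0.39 to 3.09, and 10 kept the groups apart. Several of the 12 carried identical values on every array, so both counts hold fewer distinct profiles.

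Other genes of protein synthesis gave values near those of all genes. The 77 mitochondrial ribosomal protein genes, whose products form a separate ribosome, had a median change of -0.03 with 33 above 0. The 48 translation initiation and elongation factors had a median of 0.00 with 24 above 0. Of the 51 measured genes of ribosome biogenesis 15 were above 0, with a median of -0.04; Rrs1 (0.53) was higher and Sbds (-0.33) and Mrto4 (-0.23) lower at an unadjusted limma p under 0.05, which is 1.96% and 3.92% of the list beside 1.53% and 5.05% of all genes. Of 25 genes that control ribosomal protein synthesis 7 were above 0, with Lamtor2 (0.39) higher and Tbpl1 (-0.24) lower at that level. This is 4% of the list in each direction, beside the same 1.53% and 5.05%. No gene of these lists passed the adjusted limma threshold.

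Other mRNAs with a 5′ TOP tract had 10 of 18 measured genes above 0 and a median of 0.04, with 0 under an unadjusted limma p of 0.05 and 0 under an adjusted one. Eef1a1, the elongation factor that delivers tRNA, was at 7.44, 9.37, 9.14 and 7.40 in hemophagocytes and 7.70, 7.57, 7.79 and 7.76 in resting macrophages. It shared the high values of hemophagocytes 3 and 5, and its change was 0.63 (limma unadjusted p = 0.15, adjusted p = 0.76). Fau, which encodes the 40S protein eS30 fused to a ubiquitin-like protein, had a change of 0.21.

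Markers of cell types were read on the same arrays. The mean level of 17 macrophage markers was 6.94 and 7.41 on hemophagocytes 3 and 5 and 6.48 to 6.73 on the other 6 arrays, and 0 to 6 of the 17 exceeded the receptor genes' 95th percentile per array. Cd68 was at 7.21, 9.66, 10.52 and 7.50 on hemophagocytes and 7.29 to 7.50 on resting arrays, and Lyz2 at 5.86, 9.95, 9.96 and 6.55 against 7.45 to 8.89. Of the 17, 12 had their highest value on hemophagocyte 5 and 1 (Marco) on hemophagocyte 3, while 5 (Cd163, Slc40a1, Spic, Hmox1 and Vcam1) had their lowest on hemophagocyte 3. Adgre1 and Csf1r, which define most tissue macrophages, stayed under that percentile on all 8 arrays. Lyz2 exceeded it on hemophagocytes 3 and 5 and resting macrophages 3, 4 and 5, but not on hemophagocytes 2 and 6 or resting macrophage 6. The cell type is thus the one given by the labels, and these markers did not establish it on every array.

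The 10 neutrophil markers had a mean level of 6.06 to 6.57 in hemophagocytes, highest on hemophagocyte 3, and 6.07 to 6.14 in resting macrophages, with 0 to 2 above the percentile. S100a8 (8.02) and S100a9 (9.12) were highest on hemophagocyte 3, where 4 of the 10 (Ly6g, Mpo, Cxcr2 and Camp) were lowest. The 6 platelet markers were at 6.58 to 7.33 against 6.81 to 6.98, highest on hemophagocyte 3, with 0 to 2 above. Pf4 was at 10.35 and 9.11 on hemophagocytes 3 and 5, while Ppbp and Gp5 were lowest on hemophagocyte 3. The 8 red cell markers were at 6.58 to 6.70 against 6.65 to 6.70, with 0 to 1 above. Of the 9 T cell, 8 B cell, 7 plasma cell and 9 NK cell markers measured, 0 lay above the percentile on any array. Their mean levels were 5.98 to 6.08 against 6.07 to 6.10 (T), 6.15 to 6.36 against 6.26 to 6.41 (B), 6.19 to 6.41 against 6.33 to 6.38 (plasma) and 5.78 to 6.09 against 6.14 to 6.19 (NK). The T, B, NK and red cell means were lowest on hemophagocyte 3. Hemophagocytes 3 and 5 also stood over 1 log2 unit above a gene's own median for 154 and 159 of all genes, against 7 to 30 on the other 6, and for 28 and 9 of the members. The part of these differences in the members' values was not tested.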

How the data were processed

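Each sample was hybridised to 1 array of the 8. The deposited values, on the log2 scale as judged from their range, were used without further scaling. The submitters' processing notes name Affymetrix Expression Console 1.1; how background, probe summary and normalization were handled has no description in the sources used here. Array medians over genes lay between 6.22 and 6.30. Arrays have no read depth, and 4 arrays per group limit the precision. Amplification of RNA from few cells can lose or overstate single transcripts.

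The table held 35556 probe sets, 21789 with 1 symbol in the platform annotation, 1621 with several and 12146 with none listed. The 239 several-gene probe sets with a ribosomal protein symbol were left out of the members. All 62 members matched RefSeq (GRCm38.p6) by Entrez identifier. No filter on dim probe sets was used. All 19938 genes were fitted in 1 limma model (version 3.58.1, R 4.3.3; lmFit, then eBayes, without a block), p-values were adjusted by Benjamini-Hochberg across all of them, and the method was tested on simulated data. The smallest two-sided p of an exact permutation of 4 against 4 arrays is 0.0286.

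The members and lists were chosen with earlier results of these data known. Genes named were, per subunit, the 6 of smallest unadjusted p, the 4 of largest and 3 of lowest change, the 3 members of highest mean level, paralogs, Rplp0, Rplp1, Rplp2, Rpsa and Rpl5, and up to 3 genes per other list. Rpl10a, Rpl38, Rps25, Rps9, Rps15 and Rpl7a, the shared probe sets and the marker genes were added after their values were seen. Alternatives covered scaling, dim genes, variance prior, array weights, choice of probe set, the replicate number as a block and arrays left out. Same-numbered arrays had correlations of their deviations of 0.17 (replicate 3), 0.07 (5) and 0.12 (6). Those of differently numbered arrays ranged from -0.24 to 0.18. These values do not settle whether the numbers pair the arrays, and the main fit did not treat them as paired.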

Additional observations from a re-analysis of the deposited data

Results flagged for a closer look

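The values of 32 named members were examined in each group of 4 arrays, 64 groups in all, for an array far from the other 3 of its group. Such an array was found in 12 groups. The rule's nominal rate of about 1 in 20 holds for independent values. These members were picked from the same values and share arrays, so the 12 cannot be compared with that rate. Resting macrophage 3 was such an array for Rps20, at 7.86 with the others at 4.19 to 4.40, for Rps12, at 6.86 with the others at 10.20 to 10.81, and for Rps21, at 5.96 with the others at 6.67 to 6.77. Hemophagocyte 2 was the array apart for Rps20, at 7.81 with the others at 10.04 to 10.42, for Rps12, at 7.10 with the others at 10.78 to 11.14, and for Rps23rg1, at 7.58 with the others at 7.07 to 7.16. Hemophagocyte 2 and resting macrophage 3 thus stood near each other for Rps20 and for Rps12, although they belong to different groups.

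Resting macrophage 5 was high for Rpl24, at 9.57 with the others at 6.25 to 6.46, and for Rpl27, at 7.26 with the others at 6.61 to 6.68. Resting macrophage 6 was low for Rps29, at 6.41 with the others at 8.31 to 8.50. Resting macrophage 4 was low for Rps15a, at 2.97 with the others at 3.26 to 3.31. Hemophagocyte 5 was high for Rplp2, at 8.16 with the others at 6.64 to 6.78. Hemophagocyte 3 was high for Rpl3l, at 6.37 with the others at 5.99 to 6.04.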

How the results depend on the processing

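Scaling, filter and probe set choices kept the members' median change above 0, with 0.31 under quantile normalization, 0.44 under cyclic loess and 0.21 with array weights, and the cause of differences between settings was not tested. Members apart and higher numbered 4 under cyclic loess, 4 with the mean of all probe sets and 5 with probe sets of several genes also taken. The last setting also gave 1 adjusted call (Rpl35a). The shares of all genes apart were not computed at these settings, so these counts are not compared with that of the main fit. An intensity trend with a robust prior left 7 at an unadjusted limma p under 0.05, beside 1.34% of all genes higher at that level. With replicate number as a block, an unadjusted limma p under 0.05 was reached by 27 members above and 2 below resting. There were 0 adjusted calls among the members, and their median was 0.53. Of all genes 1.83% were above resting at that level, and the share below was not computed.

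Leaving out each array in turn gave 0 to 1 adjusted calls higher and 0 to 0 lower. An unadjusted limma p under 0.05 was reached by 7 (without resting 6) to 21 (without hemophagocyte 6) members higher and by 0 to 1 lower. The shares of all genes higher at that level were 1.21% and 1.84% in these 2 settings. Members apart numbered 2 to 8 higher and 0 to 1 lower. Medians ranged from 0.12 to 0.54 (members), 0.13 to 0.48 (large) and 0.10 to 0.66 (small), with the lowest of each without hemophagocyte 3, and the difference of the small minus large gap from 0.11 to 0.47. Without hemophagocytes 3 and 5 the median was -0.032 (large 0.026), with 6 higher at an unadjusted limma p under 0.05 and 5 apart. Of all genes 1.98% were higher at that level. Without hemophagocyte 2 and resting 3, an alternative chosen after seeing the data, there was 1 adjusted call (Rps20, 6.02, limma adjusted p = 1.9e-07). In that setting 2 lower members reached an unadjusted limma p under 0.05, and 10 were apart and higher and 2 lower. For the alternatives of this section, the shares of all genes apart, or lower at an unadjusted p under 0.05, were not computed. Fewer arrays also come apart more easily, so these counts are descriptions only. The other added alternative, without paralogs, Rpl32l and Rps23rg1, had a median of 0.43.

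Of the named members' values, 23 changed sign. Rps2 had 0.0015 under cyclic loess, 0.32 with mean probe sets, 0.11 with several-gene probe sets, 0.013 without hemophagocyte 2 and 0.090 without resting 5. Rpl21 had 0.28 with mean probe sets, 0.17 with several-gene ones, 0.18 without resting 3 and 0.33 without hemophagocyte 2 and resting 3. Rps6 had 0.32 with the block and 0.020 without hemophagocyte 2 and resting 3. Without hemophagocytes 3 and 5, Rps28 had -0.59, Rps12 -0.52, Rpl5 -0.30, Rps27l -0.11, Rpl10l -0.065 and Rpl34 -0.060. Leaving out 1 array at a time, Rpl5 ranged from -0.12 (without hemophagocyte 3) to 0.82, Rpl10l from -0.087 (without hemophagocyte 5; -0.049 without resting 4) to 0.16, Rpl23 from -0.13 to 0.58 and Rps12 from -0.47 to 1.40 (both lowest without resting 3), Rpl24 from -0.61 to 0.50 (highest without resting 5), Rpl21 from -0.36 to 0.18 and Rps2 from -0.12 to 0.090.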
